A study of Xenopus laevis with 12 samples.

Results

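The genes described here encode proteasome subunits and the enzymes that attach ubiquitin to proteins or remove it, measured in embryonic ectoderm of the frog Xenopus laevis. They were chosen by name: symbols of the probe annotation that start with psma, psmb, psmc, psmd, psme, ube2, uba or usp with a digit, uchl, cul with a digit or fbx, and that end in .L or .S. The suffixes tell apart the long- and short-chromosome copies of a gene in this allotetraploid species. The rule found 117 of the 7531 named genes on the array. Of these, 48 are proteasome genes, for subunits, activators and assembly chaperones such as psmd5.L and psmd10.L. Another 68 are genes of conjugation enzymes, ligase parts or deubiquitinases. The remaining one, psme3ip1.S, encodes a protein that binds the Psme3 activator and is kept apart. Each gene is read from its brightest probe set, and 110 of the 117 passed the filter on dim signal (45 proteasome, 64 conjugation and psme3ip1.S).

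The proteasome is a barrel of alpha and beta subunits, capped by a regulatory particle whose ATPases (psmc genes) unfold proteins and whose other subunits (psmd genes) bind, trim and pass on ubiquitin chains. Ubiquitin is activated by an E1 enzyme, handed to an E2 enzyme (ube2 genes) and attached with the help of a ligase. In cullin ligases a cullin is the scaffold and an F-box protein picks the substrate, while deubiquitinases (usp and uchl genes) take ubiquitin off again. Geminin binds the replication licensing factor Cdt1 and is itself a substrate of the anaphase-promoting complex (APC/C), a large ubiquitin ligase of the cell cycle.

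RNA came from ectoderm explants (animal caps, the upper part of the blastula) on 12 Affymetrix arrays, 3 in each of 4 groups. The groups were Geminin-injected explants at stage 12 (late gastrula), uninjected explants at stage 12, Geminin-injected explants at stage 10.5 (early gastrula) and uninjected explants at stage 10.5. Injected embryos received 300 pg of RNA, labelled xGemininΔcoil, in the animal hemisphere of both cells after the first cleavage. Whether this form keeps the Geminin functions named above was not tested. Each sample pooled 80 explants cultured to the stage of sibling embryos. All 12 samples were recorded with incubation at 25 °C and 0.7x MMR medium. The controls received no RNA, so the injection itself cannot be told apart from Geminin, and each experiment paired an injected with an uninjected sample.

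Normalised intensity of gmnn.L, the Geminin gene, reached 3520, 9407 and 9407 in stage 12 injected explants, against 170.3, 277 and 3477 in uninjected explants (experiments 1, 2 and 3 in this order, here and throughout). In stage 10.5 explants the values were 6798, 8791 and 4713 with injection, against 303, 126 and 424 without. High gmnn.L signal was thus present in the library labelled uninjected, stage 12, experiment 3, and the counts at stage 12 are therefore also given without that experiment. The stage 12 arrays of experiments 2 and 3 were also very alike, with correlations over all probe sets of 0.982 between the injected and 0.99 between the uninjected arrays, against 0.887 to 0.949 for every other pair within a group. The array medians of deposited intensity lay between 49 and 145.7. The list of ectoderm markers (14 of 14 tested) had summed normalised intensities of 16690 to 18950 in stage 12 injected explants, against 24930 to 29570 in uninjected explants, and of 11730 to 14950 against 17960 to 22850 at stage 10.5. Of these 14 markers 3 (both epcam copies and sox11.S) rose and 10 fell in injected explants at stage 12 (limma adjusted p below 0.05), and 0 rose and 11 fell at stage 10.5. Of the endoderm markers 6 of 15 passed the filter on dim probe sets, of which 2 (both vegt copies) rose and 3 fell at stage 12, and 0 rose and 1 fell at stage 10.5. The sums over all 15 endoderm markers, dim ones included, were 416 to 559 in stage 12 injected explants, against 494 to 546 in uninjected explants. At stage 10.5 the sums were 604 to 827 against 434 to 812. Of the mesoderm markers 2 of 7 passed the filter, and 1 of them, myod1.L, rose at stage 10.5. The 1 organizer marker of 5 and the 1 germ plasm marker of 5 that were tested did not differ past the threshold at either stage. This changed without stage 12 experiment 3, where both passed as lower at that stage (-0.63 and -0.62), but not without experiment 1 or 2. The part of these differences in the results was not tested. In pooled explants, fewer cells of a type and less RNA per cell cannot be told apart.

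At stage 12, Geminin-injected explants differed from uninjected ones in the proteasome genes in both directions. Of 45 proteasome genes tested, 6 rose and 8 fell. The 8 that fell were 4 copies of alpha subunit genes, both copies of the lid deubiquitinase gene psmd14 and both copies of the ATPase gene psmc5. The largest change was in psmd14.S, which fell by 0.98 on the log2 scale. Changes are log2 differences of normalised intensity plus 16, which understate the change of dim genes, and a gene passed where limma's adjusted p was below 0.05. Over all 11618 probe sets tested, 41.2% passed (23.5% higher and 17.6% lower), so the 14 proteasome genes that passed, 31.1% of those tested, were no larger a share than in the whole table. The median change of the 45 proteasome genes was 0.07, against 0.09 over all probe sets.

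By part of the proteasome, the alpha ring had the most falls. It is the outer ring of the barrel and gates entry to the chamber. Of its 10 copies tested 4 fell and 1 rose, with a median change of -0.35. Without experiment 1, 2 or 3, the alpha copies that fell were 1, 1 and 3. For psma3.L, normalised intensity was 512, 359 and 419 in injected explants, against 942, 639 and 642 in uninjected explants. Every injected array was below every uninjected one, and the change was -0.75 (SE 0.13, limma adjusted p = 0.00112, 3 pairs). With any 1 experiment left out, it stayed between -0.83 and -0.70 and passed each time, and it was -0.83 without experiment 3.

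Both copies of psma6 were lower in the injected explants. The S copy had normalised intensities of 514, 669 and 735 in injected explants, against 985, 1043 and 921 in uninjected explants. The L copy had 177, 213 and 241 in injected explants, against 296, 294 and 286 in uninjected explants. Neither copy overlapped between the groups. The falls were 0.62 for psma6.S (SE 0.17, limma adjusted p = 0.0133) and 0.45 for psma6.L (SE 0.16, adjusted p = 0.0406). Without experiment 3 the changes were -0.77 (adjusted p = 0.014) and -0.57 (adjusted p = 0.0422). With 1 experiment left out at a time, adjusted p reached 0.0877 for the S copy and 0.18 for the L copy.

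The fourth alpha copy that fell was psma7.L, with 439.6, 574 and 542 in injected explants, against 579.7, 748 and 755 in uninjected explants. The groups came close without overlapping, the change was -0.41 (SE 0.14, limma adjusted p = 0.0312), and adjusted p was 0.0736 to 0.108 once any 1 experiment was left out. Its S copy differed by -0.32, which did not pass (adjusted p = 0.123). In the same ring psma2.L rose by 0.34 (adjusted p = 0.0257), while psma1.L, psma4.L and psma5.S differed by 0.30, -0.05 and 0.06 without passing.

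The beta ring holds the cutting sites, in the products of psmb5, psmb6 and psmb7. Of its 8 copies tested 0 passed. At an unadjusted limma p below 0.05, 2 of the 8 did (25%, 1 in each direction), against 50.2% of all probe sets. The changes of the 8 copies lay between -0.29 in psmb7.S and 0.31 in psmb8.L, the copy of an immunoproteasome subunit gene. For psmb6.L normalised intensity was 1942, 2067 and 2183 in injected explants, against 1584, 2062 and 1904 in uninjected explants. For psmb5.L the values were 769, 741 and 648 in injected explants, against 822, 727 and 809.7 in uninjected explants. The groups overlapped for both genes, with changes of 0.16 (limma adjusted p = 0.236) and -0.13 (adjusted p = 0.44). On the deposited scale and after median centring psmb7.S did pass as lower, at -0.41 and -0.39.

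In the regulatory particle, psmd14 encodes the metalloprotease that removes ubiquitin chains from proteins as they are taken in. For psmd14.S normalised intensity was 41.4, 25.5 and 40.96 in injected explants, against 176, 54.3 and 60.3 in uninjected explants. All injected arrays were below all uninjected arrays, and the uninjected array of experiment 1 stood far above the other two. The change was -0.98 (SE 0.23, limma adjusted p = 0.00571), but -0.59 without experiment 1 and -1.25 without experiment 3, and it passed in each case. For psmd14.L the values were 31.3, 36.6 and 46.8 in injected explants, against 70.1, 61.4 and 62.9 in uninjected explants. The groups did not overlap and the copy fell by 0.58 (SE 0.17, adjusted p = 0.0194). The change of psmd14.L was -0.71 without experiment 3 and passed, but adjusted p was 0.0795 without experiment 1 and 0.0614 without experiment 2. Both copies are dim, close to the filter.

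The ATPase gene psmc5 encodes 1 of the subunits that drive unfolding. For psmc5.S normalised intensity was 229, 151 and 154 in injected explants, against 379.8, 242 and 199 in uninjected explants. Within each experiment the injected array was lower, although the groups overlapped, and the change was -0.55 (SE 0.15, limma adjusted p = 0.0143), with an adjusted p of 0.0773 without experiment 2. The L copy fell by 0.44 (SE 0.14, adjusted p = 0.0227), and adjusted p was 0.0627 to 0.0891 with any 1 experiment left out. The other 4 ATPase copies tested (psmc1.L, psmc3.L, psmc3.S and psmc4.L) differed by -0.11 to 0.13 and did not pass.

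Apart from the alpha gene psma2.L, the genes that rose belong to the regulatory particle or its assembly. The base scaffold gene psmd2.S rose by 0.47 and the lid genes psmd12.S and psmd8.L by 0.42 and 0.40. The genes of the base assembly chaperones psmd5.L and psmd10.L rose by 0.59 and 0.45. For psmd5.L normalised intensity was 384, 693 and 570 in injected explants, against 182, 462 and 495 in uninjected explants. The injected array was the higher one in each experiment, with groups that overlapped (SE 0.18, limma adjusted p = 0.0228, and 0.38 with adjusted p = 0.155 without experiment 1). The change of psmd10.L was 0.29 (adjusted p = 0.178) without experiment 1. Without experiment 3, psmd5.L, psmd10.L and psmd12.S passed, without experiment 2 psmd2.S did, and psma2.L and psmd8.L passed in none of these fits. Of the 3 activator genes tested (psme1.S, psme3.L and psme4.L) 0 passed, with changes of 0.02 to 0.36. At an unadjusted limma p below 0.05, 1 of the 3 did, against 50.2% of all probe sets. Kept apart from both classes, psme3ip1.S rose by 0.48 (adjusted p = 0.043), but by 0.29 (adjusted p = 0.204, not passing) without experiment 1, and adjusted p was 0.0903 without experiment 3.

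These proteasome counts depended on the setting. On the deposited scale and after median centring, 2 rose and 10 fell, because psma2.L, psmd2.S, psmd8.L and psmd10.L no longer passed (adjusted p of 0.0518 to 0.0621) and psma1.S and psmb7.S now did. Over all probe sets 38.8% and 39.2% passed on these scales. Without experiment 1, 0 rose and 3 fell, without experiment 2, 1 and 2, and without experiment 3, 3 and 6. The shares of all probe sets in these fits were 28%, 30% and 37.9%. With any 1 experiment left out 2 of the 14 genes still passed each time, psma3.L and psmd14.S. Without the experiment as a block 0 proteasome genes passed, at 13% of all probe sets.

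**Figure D1:**
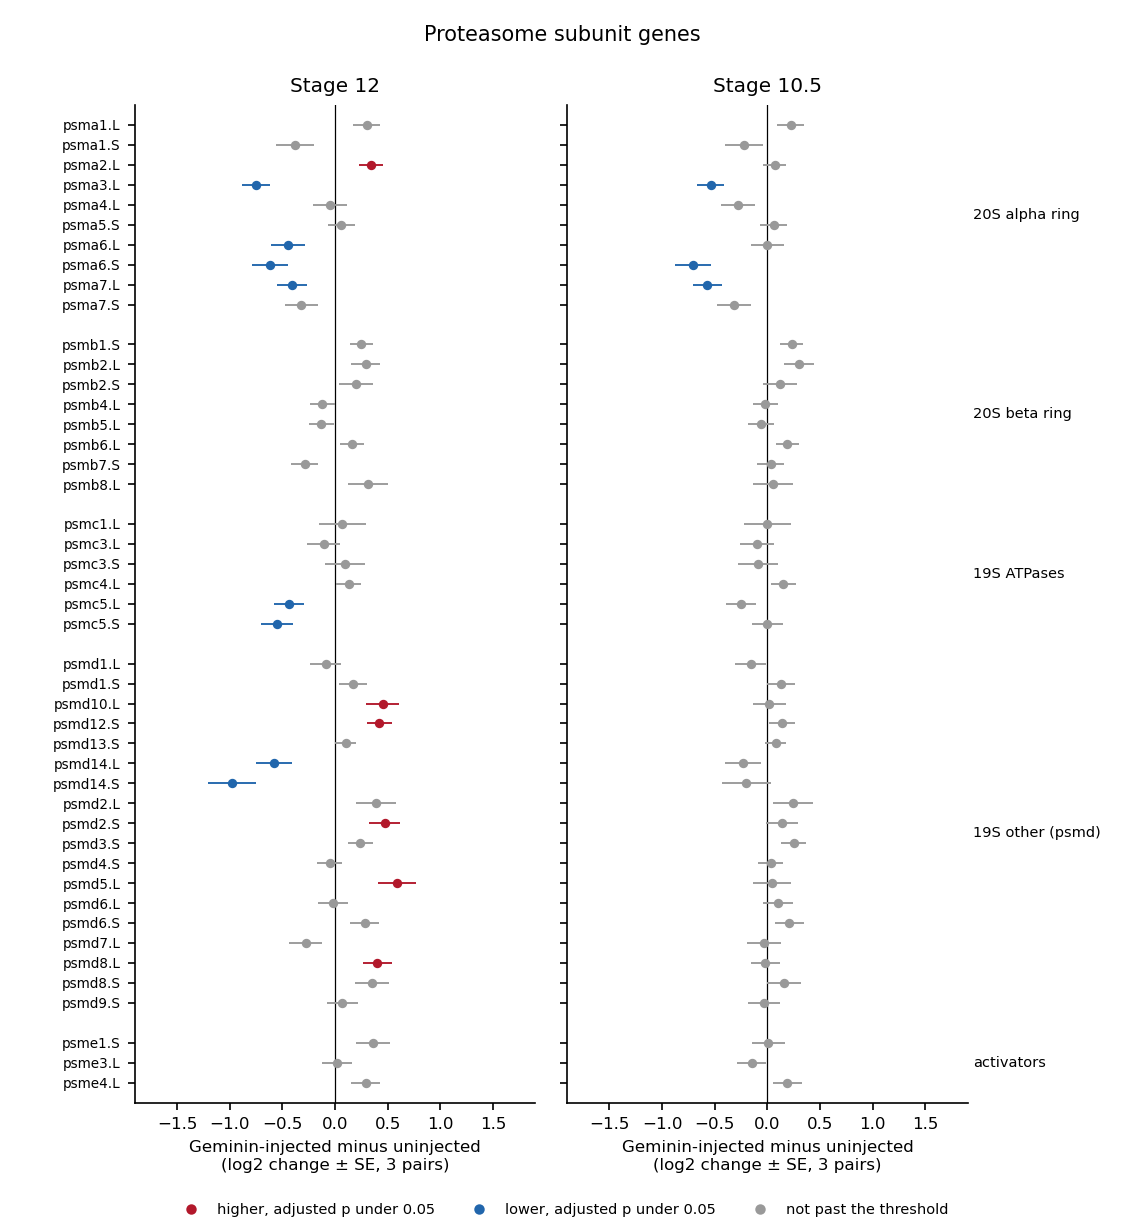
Log2 change of each tested proteasome gene in Geminin-injected against uninjected explants, stage 12 on the left and stage 10.5 on the right, with genes grouped by part of the proteasome. Points are limma estimates with SE bars from 3 pairs per stage, red where higher and blue where lower at an adjusted p below 0.05, and grey otherwise. At stage 12, 4 alpha ring copies, both psmc5 copies and both psmd14 copies are blue, and all 8 beta ring copies are grey.

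Among the conjugation genes, rises outnumbered falls at stage 12. Of 64 tested 21 rose and 5 fell, with a median change of 0.25. Of the 18 deubiquitinase genes 9 rose and 0 fell, of the 18 F-box genes 5 rose and 1 fell, and of the 19 E2 genes 3 rose and 4 fell. Of the 5 cullin genes 3 rose and 0 fell, and of the 4 E1 genes 1 rose and 0 fell. The share that passed was 40.6%, next to the 41.2% of all probe sets, and with each gene taken once 26.6% of named genes rose and 16.8% fell. Kept on the deposited scale, 16 conjugation genes rose and 8 fell, and after median centring 16 and 7, at 38.8% and 39.2% of all probe sets. Without experiment 3, 15 rose and 4 fell, and leaving out either other experiment gave 15 and 2. Over all probe sets 37.9% passed without experiment 3, and 28% and 30% without experiments 1 and 2. In every such fit 11 of the 26 genes still passed, among them ube2j2.L, ube2n.S, usp8.L, uchl3.L, fbxo46.L and fbxw8.L. Without experiment 3, all 40 proteasome and conjugation genes that passed at stage 12 kept their direction, and 25 of the 40 still passed. The pairs of all these genes but fbxo5.S had the same sign, so for them the direction could not turn. The conjugation genes that did not were cul1.L, cul3.S, fbxo33.L, fbxo5.S, uba2.L, ube2l3.S, ube2m.L, usp20.L, usp44.S and usp5.L. The proteasome genes that did not were psma2.L, psma7.L, psmc5.L, psmd2.S and psmd8.L. Without the experiment as a block 6 conjugation genes passed.

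The E2 enzyme gene ube2j2.L, whose product sits in the membrane of the endoplasmic reticulum, had the strongest change. Its normalised intensity was 275, 326 and 359.5 in injected explants, against 60.5, 139.7 and 141 in uninjected explants. Every injected array was well above every uninjected one, a rise of 1.44 (SE 0.17, limma adjusted p = 0.00012) that stayed between 1.20 and 1.59 with 1 experiment left out. The other probe sets of ube2j2.L gave rises of 1.35 and 1.43. A second E2 gene that rose was ube2h.L, with 282, 346 and 329 in injected explants, against 128, 184 and 176 in uninjected explants. Its groups did not overlap either (0.92, SE 0.15, adjusted p = 0.000724). The gene of the E2 for the ubiquitin-like protein Nedd8, ube2m.L, rose by 0.35 (adjusted p = 0.0488), but the change was 0.16 without experiment 1, and adjusted p was 0.0539 to 0.334 with any 1 experiment left out.

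Other E2 genes moved down. The product of ube2n builds ubiquitin chains together with a partner encoded by ube2v genes. For ube2n.S normalised intensity was 477, 315 and 272 in injected explants, against 764, 469 and 504 in uninjected explants. The injected array was lower in each experiment and the groups overlapped slightly (-0.69, SE 0.17, limma adjusted p = 0.00853). Its second probe set fell by 0.68, while the partner genes ube2v1.L and ube2v2.S differed by 0.36 and -0.13 without passing.

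For ube2b.S, a homolog of yeast Rad6, the values were 149, 183 and 142 in injected explants, against 320.1, 234 and 217 in uninjected explants. For ube2g2.L, the E2 of protein disposal from the endoplasmic reticulum, they were 194, 219 and 266 in injected explants, against 332, 398 and 326 in uninjected explants. Neither gene overlapped between the groups. The falls were 0.63 (SE 0.18, limma adjusted p = 0.0146) and 0.61 (SE 0.16, adjusted p = 0.0129). Without experiment 1 the change of ube2b.S was -0.44 (adjusted p = 0.0794), and for ube2g2.L it was -0.50 without experiment 2 (adjusted p = 0.094), with an adjusted p of 0.0509 without experiment 1. Without experiment 3 they were -0.67 and -0.77, and both passed. The remaining fall was in ube2l3.S, at -0.33 (adjusted p = 0.0354, and 0.0841 to 0.117 with any 1 experiment left out). The 2 enzyme genes of the APC/C, ube2c and ube2s, did not pass, with changes of -0.41 for ube2c.L, 0.17 for ube2c.S and 0.22 for ube2s.S.

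The deubiquitinase genes had a median change of 0.51 at stage 12. For usp8.L, whose product acts in endosomal sorting, normalised intensity was 46.5, 74.8 and 102 in injected explants, against 6.92, 23.7 and 41.05 in uninjected explants. Each injected array was above all uninjected ones, with experiment 1 low in both groups (1.23, SE 0.16, limma adjusted p = 0.000196). A second, dimmer probe set of usp8.L differed by only 0.02, so the probe sets disagree.

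For uchl3.L, a ubiquitin hydrolase gene, the values were 1095, 899 and 897 in injected explants, against 252, 477 and 533 in uninjected explants. The groups lay far apart (1.22, SE 0.21, limma adjusted p = 0.000994). The pair of experiment 1 differed most, and without it the rise was 0.81 and passed (adjusted p = 0.00204), against 1.47 without experiment 3. For usp38.L they were 328, 431 and 496 in injected explants, against 77.9, 326 and 344 in uninjected explants. The rise again differed with experiment 1: it was 0.92 (SE 0.24, adjusted p = 0.0105) with all pairs, but 0.45 (adjusted p = 0.0561) without that pair.

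The gene of the proteasome-bound deubiquitinase, usp14.S, had 1520, 1237 and 1065 in injected explants, against 772, 848 and 838 in uninjected explants. All injected arrays were above all uninjected ones (0.61, SE 0.13, limma adjusted p = 0.00367). The other deubiquitinase genes that rose were usp3.L, whose product acts on histones, at 0.74, the nucleolar usp36.S at 0.59, usp44.S at 0.61, usp5.L at 0.60 and usp20.L at 0.48. With any 1 experiment left out usp14.S, usp3.L and usp36.S passed each time, while usp44.S passed only without experiment 1, usp5.L only without experiment 2 and usp20.L only without experiment 1. Without experiment 3, 6 deubiquitinase genes rose, and leaving out either other experiment gave 7. Deposited values gave 8 that rose, while usp1.S fell, and after median centring 8 rose and 0 fell.

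Among the F-box genes the rise of fbxo46.L matched that of ube2j2.L in size. Its normalised intensity was 84.98, 128 and 84.4 in injected explants, against 16.6, 30.8 and 32.4 in uninjected explants. No injected array came near an uninjected one (1.44, SE 0.18, limma adjusted p = 0.000166). By its name this probe set holds probes that also match other transcripts. For fbxw8.L, which pairs with the cullin Cul7, the values were 145, 489 and 333 in injected explants, against 32.1, 217 and 194 in uninjected explants. Experiment 1 was low in both groups, so the groups overlapped, yet each pair rose (1.20, SE 0.18, adjusted p = 0.000563).

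The rises of fbxo42.L and fbxo33.L were 0.80 and 0.55. Without experiment 1 fbxo42.L rose by 0.48 and still passed, and fbxo33.L passed in that fit alone of the 3. The 2 inhibitors of the APC/C among the F-box genes, fbxo5 (Emi1) and fbxo43 (Emi2), differed in direction. For fbxo5.S normalised intensity was 361, 294 and 348 in injected explants, against 371, 179 and 170.2 in uninjected explants. It passed as higher (0.53, SE 0.19, limma adjusted p = 0.039), but experiment 1 moved the other way. The change was 0.82 without experiment 1, and it did not pass without experiment 2 (0.46, adjusted p = 0.165) or 3 (0.32, adjusted p = 0.246). For fbxo43.L the values were 17.4, 19.8 and 30.8 in injected explants, against 43.2, 38.3 and 38.03 in uninjected explants. All injected arrays were lower (-0.55, SE 0.17, adjusted p = 0.0253). The fall of fbxo43.L passed without experiment 3 (-0.71), but not without experiment 1 (-0.41, adjusted p = 0.0955) or 2 (-0.52, adjusted p = 0.0983). With a pseudocount of 64 it was -0.27 and did not pass.

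The scaffold genes cul1.L, cul4b.S and cul3.S rose by 0.61, 0.40 and 0.39, and the S copy of cul1 differed by 0.27 without passing (limma adjusted p = 0.152). Without experiment 1, 0 cullin genes passed, and 1 did without either other experiment. Of the E1 genes, uba2.L, a subunit of the SUMO-activating enzyme, rose by 0.35 (adjusted p = 0.0496, and 0.0906 to 0.178 with any 1 experiment left out). The main ubiquitin E1 gene did not pass in either copy, with changes of 0.17 for uba1.L and -0.14 for uba1.S.

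**Figure D2:**
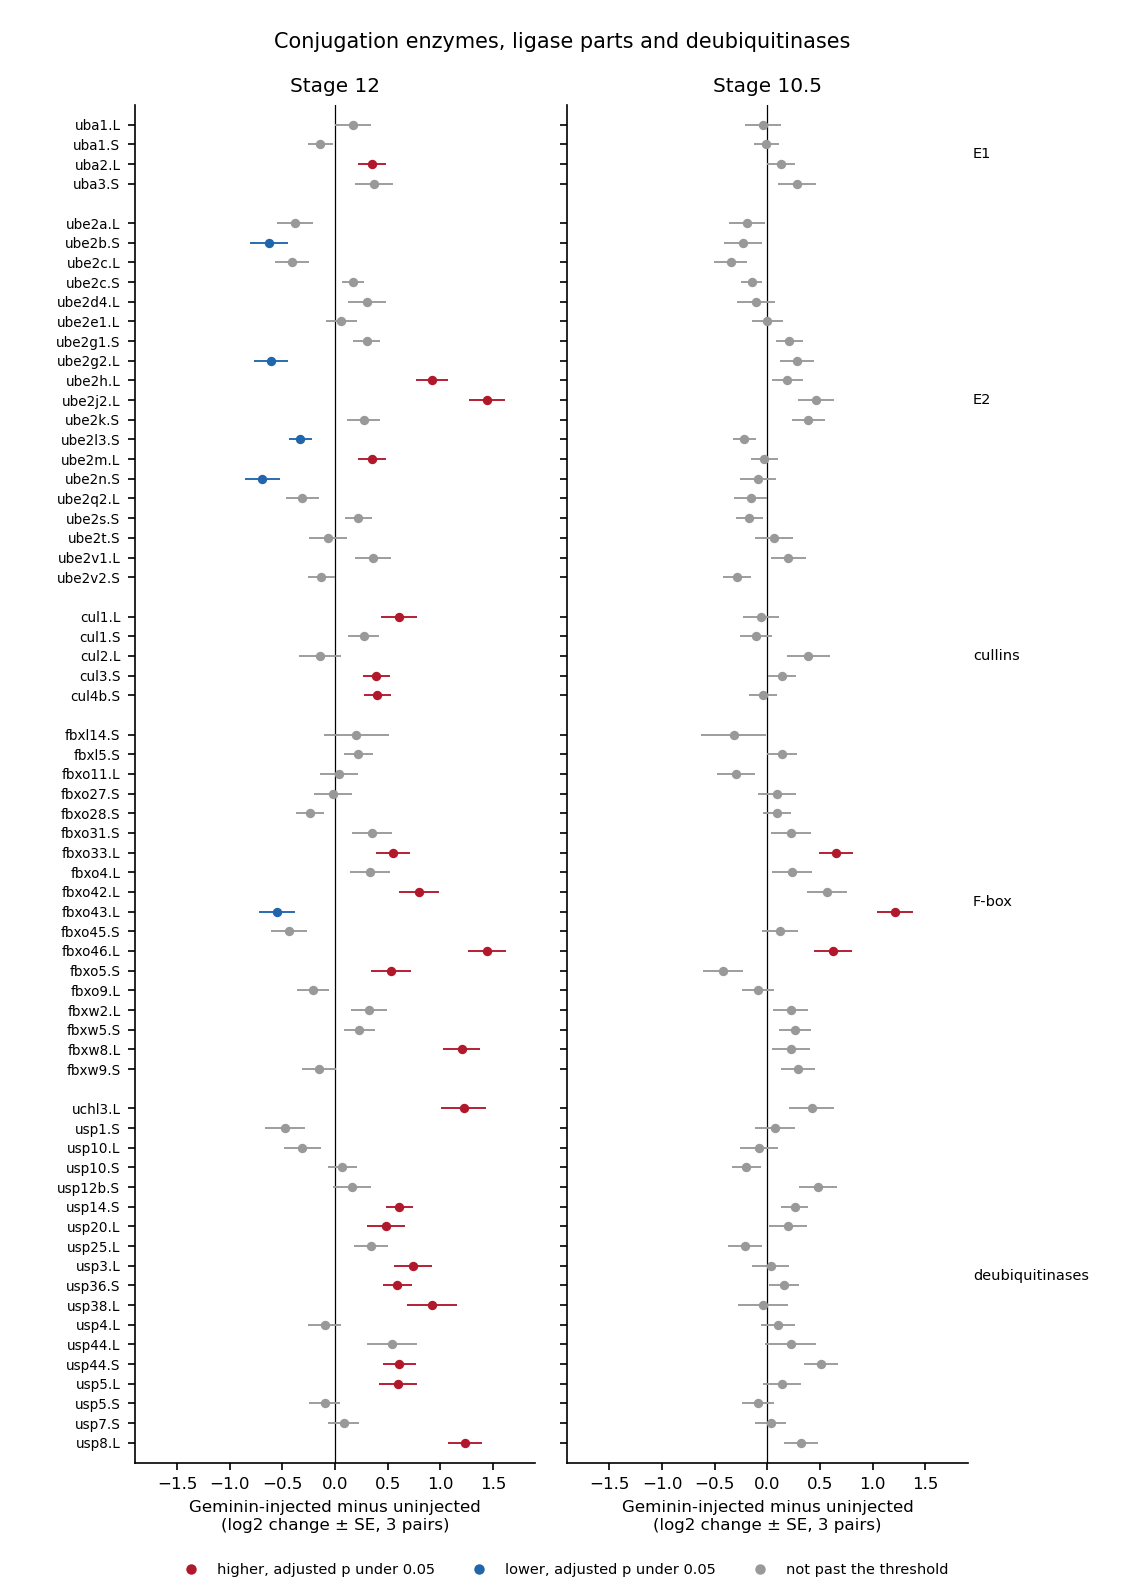
Log2 change of each tested conjugation gene in Geminin-injected against uninjected explants, stage 12 on the left and stage 10.5 on the right, with genes grouped into E1, E2, cullin, F-box and deubiquitinase genes. Points are limma estimates with SE bars from 3 pairs per stage, red where higher and blue where lower at an adjusted p below 0.05, and grey otherwise. At stage 12, 9 deubiquitinase genes are red, and at stage 10.5 3 F-box genes are red.

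At stage 10.5 few of the genes differed between Geminin-injected and uninjected explants. Of the 45 proteasome genes 0 rose and 3 fell, and these were the alpha subunit genes psma6.S, psma7.L and psma3.L. Of the 64 conjugation genes 3 rose and 0 fell, and these were the F-box genes fbxo43.L, fbxo33.L and fbxo46.L. Over all probe sets 10.4% passed (3.31% higher and 7.06% lower), against 6.67% of the proteasome genes and 4.69% of the conjugation genes. The median change was 0.02 for the proteasome genes, 0.1 for the conjugation genes and 0.05 over all probe sets. The counts were the same on the deposited scale and after median centring, at 11% and 10.8% of all probe sets. With 1 experiment left out 0 to 1 proteasome genes and 1 conjugation gene passed, at 3.88% to 6.66% of all probe sets.

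For psma6.S normalised intensity was 165, 188 and 197 in stage 10.5 injected explants, against 387, 288 and 266 in uninjected explants. For psma7.L the values were 505, 443 and 378 in injected explants, against 942, 564 and 534 in uninjected explants. For psma3.L the values were 393, 294 and 198 in injected explants, against 570.2, 477 and 274 in uninjected explants. The groups stayed apart for psma6.S and psma7.L, and overlapped for psma3.L, where each pair still fell. The changes were -0.71 for psma6.S (SE 0.17, limma adjusted p = 0.0194), -0.57 for psma7.L (SE 0.14, adjusted p = 0.0194) and -0.54 for psma3.L (SE 0.13, adjusted p = 0.0201). With 1 experiment left out they ranged from -0.86 to -0.49, from -0.68 to -0.41 and from -0.59 to -0.48. In those fits psma6.S passed only without experiment 3, psma7.L only without experiment 2 and psma3.L in none.

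The S copy of psma7 differed by -0.32 and the L copy of psma6 by 0.00 at this stage, and neither passed. Both copies of psmd14, with changes of -0.20 for psmd14.S and -0.23 for psmd14.L, and both copies of psmc5, at 0.00 and -0.25, did not pass either.

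The gene fbxo43 encodes Emi2, the APC/C inhibitor that holds the Xenopus egg in meiosis until fertilisation. Normalised intensity of fbxo43.L was 162, 87.4 and 176 in stage 10.5 injected explants, against 66.9, 31.1 and 57.4 in uninjected explants. All injected arrays were above all uninjected ones (1.21, SE 0.17, limma adjusted p = 0.000849), and the change stayed between 1.12 and 1.26, and passed, with any 1 experiment left out.

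For fbxo33.L normalised intensity was 377, 439 and 471 in injected explants, against 272, 217 and 319 in uninjected explants. For fbxo46.L the values were 126, 149.8 and 162 in injected explants, against 76.1, 75.3 and 122 in uninjected explants. Both were higher on every injected array than on any uninjected one, though only slightly so for fbxo46.L. The changes were 0.65 (SE 0.16, limma adjusted p = 0.0222) and 0.62 (SE 0.18, adjusted p = 0.0494). With 1 experiment left out, adjusted p was 0.0715 to 0.276 for fbxo33.L and 0.0895 to 0.391 for fbxo46.L.

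All 6 genes that passed at stage 10.5 also passed at stage 12, where they were 6 of 40, and 5 of the 6 had the same direction at both stages. The exception was fbxo43.L, higher in injected explants at stage 10.5 and lower at stage 12. Of all probe sets 41.2% passed at stage 12, and how many of them passed at both stages was not counted. The difference between the stages was tested itself, as the change at stage 12 minus the change at stage 10.5. Over all probe sets 5.77% passed this test (1.8% higher and 3.97% lower), against 4 of 64 conjugation genes and 0 of 45 proteasome genes (median differences of 0.11 and 0.04). At an unadjusted p below 0.05 limma gave 3 of 45 proteasome genes, 6.67%, against 23.9% of all probe sets. The falls of psma3.L, psma6.S and psma7.L differed between the stages by -0.21 (SE 0.18), 0.09 (SE 0.24) and 0.16 (SE 0.19), with limma adjusted p of 0.506, 0.846 and 0.644. For psmd14.S, which passed at stage 12 alone, the difference was -0.77 (SE 0.32, adjusted p = 0.169) and did not pass.

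The 4 conjugation genes whose change differed between the stages were fbxo43.L, ube2j2.L, usp8.L and ube2g2.L. For fbxo43.L the difference was -1.75 (SE 0.24, limma adjusted p = 0.00322). The rise of ube2j2.L was larger at stage 12 by 0.98 (SE 0.24, adjusted p = 0.0374). That of usp8.L was larger by 0.91 (SE 0.22, adjusted p = 0.0379), but by 0.7 with adjusted p of 0.0743 to 0.0774 on the other scalings. For ube2g2.L, lower at stage 12 and 0.28 at stage 10.5, the difference was -0.88 (SE 0.23, adjusted p = 0.0477). Without stage 12 experiment 3, 7 conjugation genes passed this test, without stage 12 experiment 1, 3 did, and without any of the other 4 experiments 1 did. In these fits 1.65% to 8.75% of all probe sets passed, the most without stage 12 experiment 3. The difference of fbxo43.L passed each time, at -1.92 to -1.61. That of ube2j2.L passed only without stage 12 experiment 3 (1.07), as did that of ube2g2.L (-1.05), and that of usp8.L only without stage 12 experiment 1 (0.8) or 3 (1).

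At stage 10.5 ube2j2.L had normalised intensities of 571, 605 and 670.5 in injected explants, against 397, 391 and 552 in uninjected explants. For usp8.L they were 173, 121 and 173 in injected explants, against 142, 86.01 and 140.2 in uninjected explants. Each pair was higher in the injected sample for both genes, by less than at stage 12, and the stage 10.5 changes of 0.46 and 0.32 did not pass (limma adjusted p = 0.117 and 0.26).

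**Figure D3:**
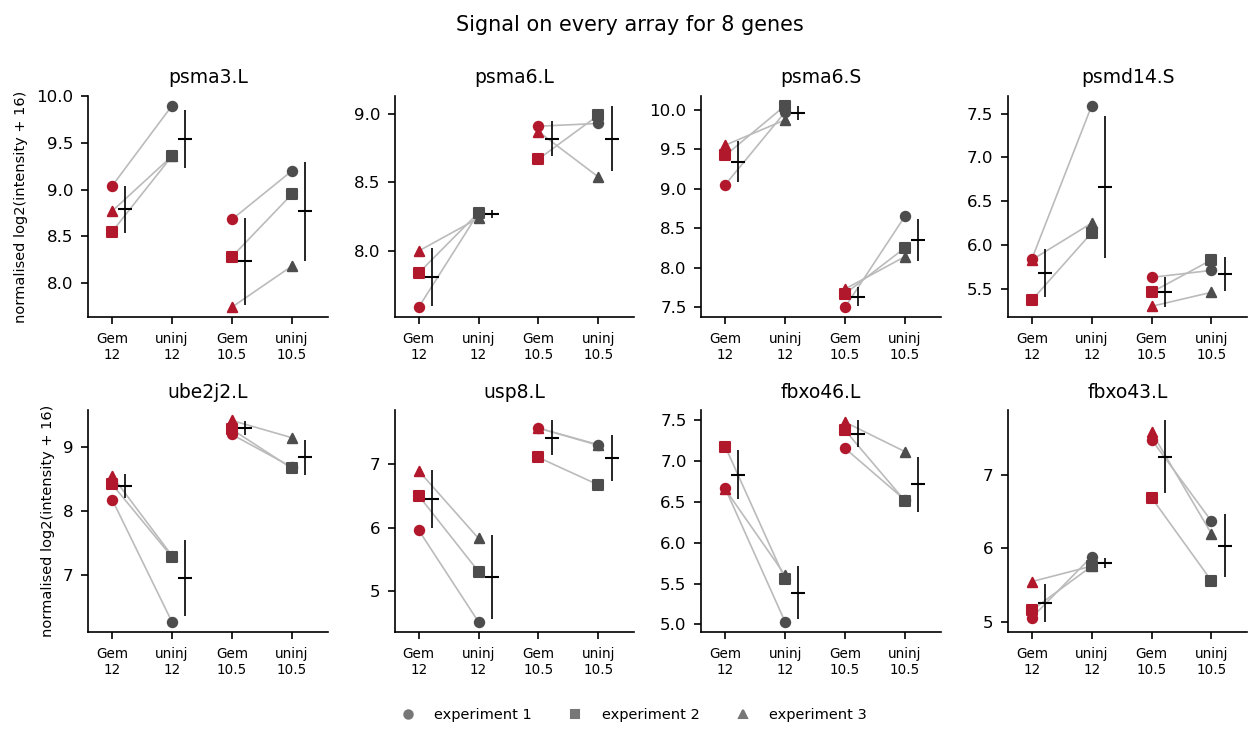
Normalised log2(intensity + 16) on each of the 12 arrays for psma3.L, psma6.L, psma6.S, psmd14.S, ube2j2.L, usp8.L, fbxo46.L and fbxo43.L, with the groups from left to right as injected and uninjected at stage 12, then injected and uninjected at stage 10.5. Markers give the experiment (circle 1, square 2, triangle 3), thin lines join the arrays of a pair, and bars are mean ± SD (n = 3). The panels of the psma6 copies show the S copy higher and the L copy lower at stage 12 than at stage 10.5, and in the fbxo43.L panel the injected arrays are below the uninjected ones at stage 12 and above them at stage 10.5.

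The same arrays show how these RNAs changed in uninjected explants between the early and late gastrula, with stage 12 set against stage 10.5. Of the 45 proteasome genes 10 rose and 2 fell, and of the 64 conjugation genes 8 rose and 14 fell. Over all probe sets 31.7% passed (15.2% higher and 16.5% lower). The median change was 0.09 for proteasome genes, -0.3 for conjugation genes, -0.44 for deubiquitinase genes and -0.04 over all probe sets. The array scaling matters here: the median of all probe sets was -0.23 on the deposited scale and 0.12 after median centring. Relative to it, the proteasome median was higher by 0.13, 0.23 and 0.22 on the main, deposited and median-centred scales. The conjugation median stood at -0.26, -0.17 and -0.18 and the deubiquitinase median at -0.4, -0.43 and -0.44 relative to all probe sets. On the deposited scale 1 proteasome gene rose and 0 fell, and 0 conjugation genes rose and 9 fell, while 11.8% of all probe sets passed. After median centring 15 proteasome genes rose and 0 fell, and 9 conjugation genes rose and 12 fell, at 33.2% of all probe sets. With any 1 array left out 6 of the 12 proteasome genes passed each time (psma1.S, psma6.S, psmb6.L, psmc4.L, psmc5.S and psmd14.L), and 14 of the 22 conjugation genes did. The other 8 were cul1.S, fbxw9.S, ube2n.S, ube2q2.L, uchl3.L, usp3.L, usp38.L and usp5.S.

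In injected explants 6 proteasome genes rose and 1 fell between the stages, and 3 conjugation genes rose and 8 fell. Over all probe sets 16.3% passed (7.82% higher and 8.49% lower). The injected arrays are paired by experiment with the uninjected ones, so the stage changes in the injected and uninjected explants are not independent of each other. The median change was 0.2 for proteasome genes, -0.07 for conjugation genes and 0.02 over all probe sets. Without rescaling 0 proteasome genes passed and 3 conjugation genes fell, while 4.6% of all probe sets passed. After median centring 9 proteasome genes rose and 1 fell, and 6 conjugation genes rose and 6 fell, at 20.4% of all probe sets. With any 1 array left out 4 of the 7 proteasome genes (psma6.L, psma6.S, psmb6.L and psmd8.S) and 5 of the 11 conjugation genes (cul2.L, fbxo33.L, fbxo43.L, uba1.L and uba3.S) passed each time. Of the 7 proteasome genes that passed in injected explants and the 12 in uninjected explants, 7 passed in both with the same direction, 6 of them higher. Of the 11 conjugation genes that passed in injected and the 22 in uninjected explants, 9 passed in both with the same direction, 3 higher and 6 lower. How many of all probe sets passed in both was not counted.

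The psma6 copies ran in opposite directions with stage. In uninjected explants psma6.S had normalised intensities of 985, 1043 and 921 at stage 12, against 387, 288 and 266 at stage 10.5. In the same explants psma6.L had 296, 294 and 286 at stage 12, against 470.1, 494 and 356 at stage 10.5. Both copies kept the stages apart on every array, the S copy higher and the L copy lower at stage 12. The changes were 1.62 for psma6.S (SE 0.20, limma adjusted p = 0.000127) and -0.55 for psma6.L (SE 0.19, adjusted p = 0.0443). In injected explants they were 1.71 for psma6.S (adjusted p = 0.000425) and -1.01 for psma6.L (adjusted p = 0.00472). The rise of psma6.S in uninjected explants passed on each scaling, whereas the fall of psma6.L there passed on neither other one (adjusted p = 0.281 and 0.0949).

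A similar split was seen for psmd8, a lid subunit gene, in uninjected explants. There psmd8.S rose by 0.89 (SE 0.24, limma adjusted p = 0.0154) and psmd8.L fell by 0.59 (SE 0.20, adjusted p = 0.0375). On the deposited scale neither copy passed, and after median centring psmd8.L did not. Of the 6 fits that leave out 1 array, psmd8.L failed in 5 and psmd8.S in 1. A second probe set of psmd8.L differed by 0.18 between the stages, so the probe sets of that copy disagree. In injected explants psmd8.S rose by 1.08, while psmd8.L differed by -0.16 and did not pass. In all, 17 genes had both copies tested.

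The other proteasome genes that rose in uninjected explants were spread over all parts of the particle. In the core, psma1.S rose by 1.14, the catalytic subunit gene psmb6.L by 0.93 and psmb4.L by 0.63. In the regulatory particle, psmc5.S rose by 1.39, psmd14.S by 0.99, psmd14.L by 0.83, the ubiquitin receptor gene psmd4.S by 0.73 and psmc4.L by 0.67. The rise of psmd14.S was 0.53 (limma adjusted p = 0.0876) without the stage 12 array of experiment 1, lay between 0.53 and 1.26 over the 6 fits that leave out 1 array, and passed in 2 of them. For psmb6.L normalised intensity in uninjected explants was 1584, 2062 and 1904 at stage 12, against 892, 911 and 1080 at stage 10.5 (SE 0.16, limma adjusted p = 0.00103). In injected explants it was 1942, 2067 and 2183 at stage 12, against 939, 1124 and 1230 at stage 10.5 (0.91, SE 0.16, adjusted p = 0.00277). In both kinds of explant the stages did not overlap.

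Both psmd14 copies and psmc5.S are among the rises with stage in uninjected explants and among the falls under Geminin at stage 12. These comparisons share the uninjected stage 12 arrays. The L copy of psmc5 differed by 0.83 with stage in uninjected explants and did not pass (limma adjusted p = 0.133). For psmd14.S normalised intensity was 41.4, 25.5 and 40.96 in injected and 176, 54.3 and 60.3 in uninjected explants at stage 12, then 33.4, 28.03 and 23.3 in injected and 36.3, 40.7 and 28.04 in uninjected explants at stage 10.5. The uninjected stage 12 arrays were above those of all other groups. For psmc5.S it was 229, 151 and 154 in injected and 379.8, 242 and 199 in uninjected explants at stage 12, then 80.5, 108 and 84.97 in injected and 89.3, 101 and 81.95 in uninjected explants at stage 10.5. Both stage 12 groups were above both stage 10.5 groups. In injected explants psmc5.S rose with stage by 0.84 (SE 0.26, limma adjusted p = 0.0432), while psmd14.S differed by 0.22 (SE 0.33, adjusted p = 0.701) and did not pass. That rise of psmc5.S failed the threshold in all 6 fits that leave out 1 array.

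**Figure D4:**
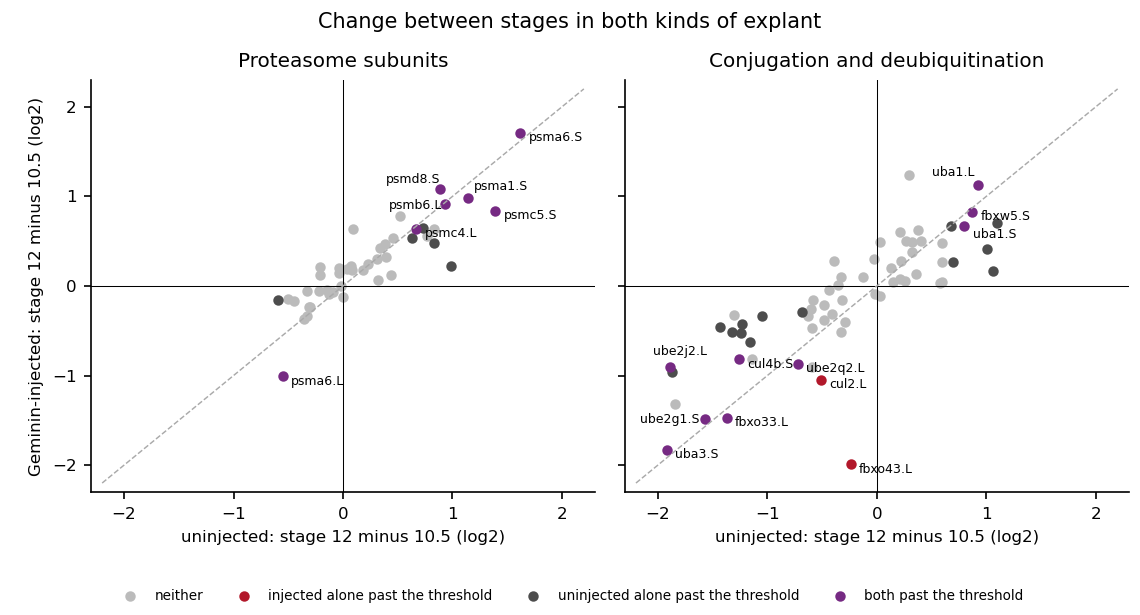
Log2 change of each tested gene at stage 12 minus stage 10.5, in injected explants (vertical axis) and in uninjected explants (horizontal axis), proteasome genes on the left and conjugation genes on the right. Points are limma estimates from 3 arrays per group, coloured by where they passed, the dashed line marks equal change, and the genes that passed in injected explants are labelled. The copy psma6.S is high and uba3.S low on both axes, and fbxo43.L lies far below the dashed line.

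The E1 genes moved apart with stage. In uninjected explants uba1.L had normalised intensities of 81.7, 70.5 and 86.2 at stage 12, against 28.7, 43.1 and 32.1 at stage 10.5. Its S copy had 989, 1337 and 1457 at stage 12, against 793, 766 and 584 at stage 10.5. Both copies of this main ubiquitin E1 gene were higher on every stage 12 array. In contrast uba3.S, the gene of the catalytic subunit of the Nedd8 E1, had 124, 70.4 and 66.00 at stage 12, against 350.4, 292 and 463 at stage 10.5. The stages were far apart for uba3.S. In uninjected explants the changes were 0.92 for uba1.L (SE 0.20, limma adjusted p = 0.00428), 0.80 for uba1.S (SE 0.18, adjusted p = 0.00631) and -1.92 for uba3.S (SE 0.26, adjusted p = 0.000263). In injected explants they were 1.13, 0.67 and -1.83, and all 3 passed. The fall of uba3.S passed on all 3 scalings in both kinds of explant. The rises of both uba1 copies did not pass on the deposited scale, with adjusted p of 0.327 and 0.267 in uninjected explants.

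Among the E2 genes, ube2j2.L, ube2g1.S, ube2h.L and ube2q2.L fell with stage in uninjected explants, by 1.89, 1.57, 1.24 and 0.72. The genes ube2b.S, ube2g2.L and ube2n.S rose by 1.10, 1.06 and 1.01. In injected explants ube2j2.L, ube2g1.S and ube2q2.L fell by 0.91, 1.48 and 0.87. These falls were not stable: of the 6 fits that leave out 1 array, ube2j2.L failed in all 6 and ube2g1.S in 5. Per fit, 0 to 2 E2 genes passed as lower. There ube2h.L, ube2b.S, ube2g2.L and ube2n.S did not pass, with changes of -0.52, 0.70, 0.17 and 0.41.

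The deubiquitinase genes usp8.L, usp38.L, uchl3.L, usp25.L and usp3.L fell with stage in uninjected explants, by 1.87, 1.43, 1.23, 1.16 and 1.05, and usp5.S rose by 0.68. Without the stage 12 array of experiment 1 the fall of usp38.L was 0.79, and it passed. Of the 18 deubiquitinase genes 0 passed in injected explants, where 16.3% of all probe sets did. At an unadjusted limma p below 0.05, 5 of the 18 (27.8%) did there, against 30.9% of all probe sets. The 6 genes named above differed by -0.96, -0.46, -0.42, -0.62, -0.34 and 0.67 in injected explants. In uninjected explants usp8.L had normalised intensities of 6.92, 23.7 and 41.05 at stage 12, against 142, 86.01 and 140.2 at stage 10.5. In injected explants it had 46.5, 74.8 and 102 at stage 12, against 173, 121 and 173 at stage 10.5. Stage 12 was lower on every array in both kinds of explant, and in the injected ones the change of -0.96 had a limma adjusted p of 0.0788 (0.0443 after median centring). The difference between the kinds of explant is the difference tested above between the stages. Of the 18 deubiquitinase genes only usp8.L passed that test (5.56%), against 5.77% of all probe sets.

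Of the F-box genes, fbxo33.L fell with stage by 1.47 in injected and 1.37 in uninjected explants, and fbxw5.S rose by 0.83 in injected and 0.87 in uninjected explants. In uninjected explants fbxo46.L fell by 1.32 and fbxw9.S rose by 0.70. In injected explants fbxo43.L fell by 1.99 (SE 0.28, limma adjusted p = 0.000968), against a change of -0.24 (SE 0.28, adjusted p = 0.546) in uninjected explants. Of the cullin genes, cul4b.S fell by 0.82 in injected and 1.26 in uninjected explants. The gene cul2.L fell by 1.05 in injected explants and cul1.S by 0.68 in uninjected ones. With 1 array left out, cul1.S failed in all 6 fits (limma adjusted p of 0.0507 to 0.167). In injected explants cul4b.S then passed only without the stage 10.5 array of experiment 2, while cul2.L passed each time.

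The genes left out as dim were usp1.L, fbxl22.S, fbxo30.L, fbxo8.S, psma3.S, psmb9.S and psme2.L. Tested without a filter, psma3.S fell by 0.62 in injected explants at stage 12 (limma adjusted p = 0.0304), near the fall of its L copy. Between the stages fbxo8.S fell by 1.02 in injected and 0.67 in uninjected explants (adjusted p = 0.00482 and 0.0222), and fbxo30.L fell by 0.86 in injected explants (adjusted p = 0.0405). For usp1.L, fbxl22.S, psmb9.S and psme2.L 0 tests passed.

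The partners of these genes were read from 6 further lists. Of the 10 proteasome assembly and transcription genes tested, 2 rose and 3 fell in injected explants at stage 12, where 23.5% of all probe sets rose and 17.6% fell. At stage 10.5 1 of the 10 rose (adrm1.S by 0.51, limma adjusted p = 0.0371) and 2 fell, at 3.31% and 7.06% of all probe sets. The core assembly chaperone genes psmg1.L and psmg3.L fell by 0.65 (limma adjusted p = 0.0027) and 0.58 (adjusted p = 0.0113). These were the 2 genes that fell at stage 10.5, by 0.89 (adjusted p = 0.000988) and 1.00 (adjusted p = 0.00149). For psmg1.L normalised intensity was 567, 759.7 and 789 in stage 12 injected explants, against 908, 1252 and 1177 in uninjected explants. The stage 10.5 values were 190.5, 156 and 197 in injected explants, against 417, 306 and 329.8 in uninjected explants. Each pair was lower in the injected sample. With any 1 experiment left out both genes passed at stage 10.5, and at stage 12 psmg1.L did each time and psmg3.L missed once (adjusted p = 0.0546 without experiment 2).

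In mammals nfe2l1 encodes a transcription factor of proteasome genes. For nfe2l1.S normalised intensity was 21.98, 14.7 and 14.8 in stage 12 injected explants, against 83.3, 46.7 and 54.5 in uninjected explants. The injected arrays were near the lowest signals of the array, and all were below the uninjected ones (-1.20, SE 0.16, limma adjusted p = 0.000204), and at stage 10.5 the change was -0.50 (adjusted p = 0.0648). The proteasome scaffold gene ecpas.L rose by 0.54 and the ubiquitin receptor gene adrm1.S by 0.39 at stage 12. Without experiment 1 ecpas.L differed by 0.28 (adjusted p = 0.193), and without experiment 3 adrm1.S differed by 0.3 (adjusted p = 0.188). The gene nfe2l1.S was not tested without experiment 1, since its mean signal then lay below the filter, and it fell by 1.21 without experiment 3.

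Of the 12 APC/C genes tested 8 rose and 0 fell at stage 12, with a median change of 0.56, among them the activator cdc20.L by 0.82 (limma adjusted p = 0.00132), anapc16.L by 0.76 and cdc23.L by 0.70. Over all probe sets 23.5% rose and 17.6% fell at that stage. With 1 experiment left out 6 or 7 of the 12 rose, 7 without experiment 3. The list shares fbxo5 with the F-box genes, which is not counted here. At stage 10.5, 3 of 12 rose and 0 fell, against 3.31% of all probe sets that rose, and with 1 experiment left out 0 to 1 did. Between the stages 5 of 12 fell in injected and 6 of 12 in uninjected explants, and 0 rose, against 8.49% and 16.5% of all probe sets that fell.

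The counts of the remaining lists at stage 12 stand beside the same 23.5% higher and 17.6% lower over all probe sets. At stage 10.5, 10.4% of all probe sets passed, and 22.6% had an unadjusted limma p below 0.05. Of the 21 cullin ligase partners tested 3 rose and 0 fell at stage 12 (rnf7.L by 0.59, btrc.S by 0.58 and skp1.L by 0.55), and 0 passed at stage 10.5 (1 at an unadjusted p below 0.05). Of the 10 ubiquitin and ubiquitin-like genes 1 rose (atg3.S by 0.49) and 2 fell (ufc1.S by 0.61 and senp5.L by 0.57) at stage 12, and 0 passed at stage 10.5 (2 at an unadjusted p below 0.05). Of the 19 other ligase genes 7 rose and 1 fell at stage 12, led by nedd4l.S at 0.77, ube3c.S at 0.67 and rnf168.L at 0.61, and 1 rose at stage 10.5. Of the 13 genes for the Vcp segregase, its cofactors and shuttle proteins 3 rose and 1 fell at stage 12, and 0 passed at stage 10.5 (2 at an unadjusted p below 0.05). In this list nploc4.S, the gene of a Vcp cofactor, rose by 0.85 and faf2.S, which binds Vcp at the endoplasmic reticulum, fell by 0.90 (limma adjusted p = 0.0017). Without experiment 3, 3 cullin partners, 7 other ligase genes and 3 genes of the Vcp list rose, while atg3.S did not pass. Without either other experiment these 3 counts were 1, 3 and 1, and without experiment 1 skp1.L differed by 0.23 and ube3c.S by 0.41 (adjusted p = 0.308 and 0.0748).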

How the data were processed

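Total RNA of 12 explant samples was hybridised to 1-colour Affymetrix arrays. The authors deposited 1 intensity on a linear scale per probe set and array, with summary, background and scaling steps not given in the sources used here. From these deposited intensities log2(intensity + 16) was taken and quantile normalised across arrays, because the array medians spanned 1.31 on the log2 scale. Of 15491 probe sets, 3873 with the lowest 25% of mean signal were not tested. In the annotation 9304 probe sets have 1 symbol, 195 have several and 5992 have none. Gene identifiers matched for 9227 of them and updated 2 symbols. The brightest probe set stands for a gene, and 14 member genes had several. Another 3 symbols that fit the prefixes have no suffix and were not used, nor were 9 probe sets that name a member beside another gene. Copies of a gene can cross-hybridise, so .L and .S values are uncertain where probes match both. Signal is not compared between probe sets.

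Groups follow titles and stage labels. For uninjected explants of stage 12, experiment 2, the description gives stage 10.5 instead, and the other labels were used. Tests used limma 3.58.1 (R 4.3.3; lmFit, then eBayes with trend), Benjamini-Hochberg adjustment over 11618 probe sets and a threshold of 0.05. SEs are limma's. The design text pairs injected and uninjected samples and says the experiment was repeated 3 times, so experiment within stage was a block for Geminin comparisons (4 residual degrees of freedom). Deviations of paired arrays correlated at 0.424 to 0.797. At stage 12 the unmatched arrays of experiments 2 and 3 correlated at 0.497 and 0.555, so these values do not tell those pairs apart. All other unmatched arrays correlated negatively. Deviations were taken from the mean of the 3 arrays of a group, so a positive matched value pulls the unmatched values down. Their negative sign is thus partly set by the calculation. Stages were compared without a block (8 degrees of freedom). That fit treats all arrays as independent, although paired arrays shared deviations and stage 12 experiments 2 and 3 were very alike. The degrees of freedom may thus be too many and the adjusted p of the stage comparisons too small. Precision is limited by the number of arrays. The fits were also run on simulated data, in which paired arrays shared deviations for the Geminin comparisons only. The stage fits were simulated with independent arrays, so that run cannot show how they behave with paired arrays.

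Members and lists were chosen with earlier results of these data known. Named by rule were, per class and comparison, up to 6 genes per direction with the largest change, the same sign in all pairs (for stages, groups that do not overlap) and an adjusted p below 0.05, with their copies and other probe sets, any proteasome gene, and up to 3 genes per direction of each further list. Other conjugation genes were named after their values were seen. Alternatives were the deposited scale, median centring, other pseudocounts and filters, no block, experiments left out, and the alike stage 12 experiments averaged.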

Additional observations from a re-analysis of the deposited data

Results flagged for a closer look

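For 4 genes the Geminin-minus-uninjected change differed between the stages by limma's test of the difference itself. In fbxo43.L the change was -0.55 at stage 12 and 1.21 at stage 10.5, a difference of -1.75 (adjusted p = 0.00322), with all 3 pairs lower at stage 12 and all 3 higher at stage 10.5. Its fall at stage 12 passed by itself in 1 of the 3 fits that leave out an experiment (adjusted p of 0.0148 to 0.0983). In ube2j2.L it was 1.44 and 0.46, a difference of 0.98 (adjusted p = 0.0374). In usp8.L it was 1.23 and 0.32, a difference of 0.91 (adjusted p = 0.0379), but the gene is dim in uninjected stage 12 explants and its second probe set disagreed. Both of these genes were higher in the injected sample of all 3 pairs at each stage. In ube2g2.L it was -0.61 and 0.28, a difference of -0.88 (adjusted p = 0.0477), again with the pairs in opposite directions at the stages. The largest of these differences was that of fbxo43.L, and it alone passed whichever experiment was left out.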

How the results depend on the processing

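Of 871 alternative values computed for the 70 results on single named genes, 656 stayed on the same side of the threshold, 215 no longer passed and 0 changed direction. Apart from the differences between stages, these genes were chosen for the same sign in all pairs or for groups that do not overlap. Leaving out an experiment, an array or the block could therefore not turn their direction. Without the replicate block, the count of genes that passed in Geminin-injected against uninjected explants was 6 conjugation and 0 proteasome genes at stage 12 and 1 conjugation and 0 proteasome genes at stage 10.5. Without that block 0 conjugation genes passed for the difference between the stages, while 13%, 2.26% and 0.293% of all probe sets passed these 3 tests. The experiment number as a block in the stage comparisons left all 36 named genes past the threshold. With it 24.2% of probe sets passed in injected and 40.2% in uninjected explants, against 16.3% and 31.7% without it. No label links an experiment number at one stage to the same number at the other, and these genes were chosen for passing. Their staying past the threshold therefore adds no support. With the alike stage 12 experiments 2 and 3 averaged, 17 conjugation and 9 proteasome genes passed at stage 12, 6 and 3 between the stages in injected explants, and 6 proteasome genes between the stages in uninjected ones. The shares of all probe sets there were 35%, 6.85% and 23%. For the difference between the stages 2 conjugation genes passed with the lowest 50% left out, and 2 with a pseudocount of 1, at 4.89% and 3.76% of all probe sets. On the deposited scale 3 conjugation and 0 proteasome genes passed between the stages in injected explants, and 9 and 1 in uninjected ones, at 4.6% and 11.8% of all probe sets. In each of these cases the cause was not tested. With 1 experiment or array left out, conjugation and proteasome counts were 17 to 19 and 3 to 9 at stage 12, 1 and 0 to 1 at stage 10.5, and 1 to 7 and 0 for the difference. All probe sets passed at 28% to 37.9%, 3.88% to 6.66% and 1.65% to 8.75% in these fits. Between the stages the counts were 5 to 8 and 4 to 6 in injected explants, and 17 to 21 and 8 to 10 in uninjected ones. The shares of all probe sets there were 8.13% to 14.2% and 24.1% to 27.6%. Some genes passed under every alternative in which they were tested. At stage 12 these were ube2j2.L, fbxo46.L, uchl3.L and usp8.L, and at stage 10.5 fbxo43.L. Between the stages they were fbxo33.L, fbxo43.L and uba3.S in injected explants, and fbxo33.L, psma6.S, uba3.S, ube2j2.L and usp8.L in uninjected ones. With the lowest 50% left out, usp8.L and fbxo43.L were too dim to be tested. Signal limits the dim genes most, psmd14.S, psmd14.L, fbxo43.L and usp8.L among them. The stage 12 change of usp8.L lay between 0.66 and 1.85 over the alternatives.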
